A study of Homo sapiens with 24 samples.

Results

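Truncated SETD2, called SETD2 C, was compared with full-length SETD2, called SETD2 FL, across all genes. SETD2 is the enzyme that places trimethylation on lysine 36 of histone H3 (H3K36me3) in the bodies of transcribed genes. SETD2 C holds residues 1404 to 2564, and so lacks the long N-terminal part of the protein while it keeps the catalytic SET domain and the SRI domain that binds RNA polymerase II. The members were 4 of the 24 samples of the series, the 2 SETD2 C and the 2 SETD2 FL libraries of one table of RNA abundance. They were chosen by their labels. Both groups were HEK293T cells, a human embryonic kidney cell line, in which both alleles of the endogenous SETD2 gene had been disrupted (KO), and both were transfected with a SETD2 construct. The study drove tagged constructs from the CMV promoter and took RNA 72 h after transfection. The 2 KO libraries of the same table, labelled untreated, served as a reference level. The comparison asks what the truncation changes in the transcriptome when the host cells and the transfection are the same.

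A transcript that is expressed from a strong promoter does not tell how much protein accumulates, and H3K36me3 was not measured in these libraries. Among the gene groups described here, the hypoxia pathway runs through HIF, a factor made of an alpha subunit and ARNT. Prolyl hydroxylases (EGLN proteins) and VHL mark the alpha subunit for destruction when oxygen is present. HIF raises genes of glucose uptake, glycolysis, matrix modification and mitophagy. Cholesterol synthesis is controlled by SREBF2, a factor that is freed from the endoplasmic reticulum when sterols are scarce.

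SETD2 (ENSG00000181555, chromosome 3 of GRCh38 from 47016428 to 47164113) had 1329 and 1264 TPM in SETD2 C cells, 439 and 422 in SETD2 FL cells, and 12 and 12.2 in KO. TPM is a transcript abundance that is scaled by length and sums to the same total in each library. The SETD2 C libraries lay above both SETD2 FL libraries, by 1.46 ± 0.06 (SE) on the log2 scale (limma, adjusted p = 7.09e-06). The values are for the gene as a whole, so they check that a construct was present but not which one. Because SETD2 C is the shorter construct, a length-scaled value for the whole gene does not compare the amounts of construct transcript. The paper reports no significant difference in mRNA level between the variants in its RNA-seq. By microscopy and western blot it reports markedly more SETD2 C protein than SETD2 FL protein. It also reports a higher global H3K36me3 level with SETD2 C. The parts of construct identity, protein level and any difference in transcript level in the results that follow cannot be told apart.

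The 4 libraries had a TPM of at least 1 for 14499 and 14505 genes with SETD2 FL and for 15508 and 15513 in SETD2 C cells. The depth behind each value is unknown. The log2 values correlated at 0.994 between the SETD2 C libraries, 0.995 between the SETD2 FL libraries and 0.979 to 0.982 across the groups, over genes, which are not independent replicates. The 9 lineage genes that HEK293T expresses were all above 0 in every library. Of 18 markers of other cell types, 6 passed the filter on low TPM. In all 6 both SETD2 C libraries lay above both SETD2 FL libraries, against 40.3% of all genes. At the adjusted p alone 3 were higher (50%, against 21.4% of all genes), and the median log2 fold change was 0.48. The markers summed to 20.7 to 23.7 TPM with SETD2 C and 13.4 to 15.3 with SETD2 FL, and INS, PTPRC, CDH5 and CD3E were at 0 in both SETD2 FL libraries and at most at 0.05 with SETD2 C. The part of these differences in the results was not tested.

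With SETD2 C, 536 genes were higher than with SETD2 FL (3.36% of 15929 tested) and 67 were lower (0.421%), where a call needed a change of 2-fold or more together with an adjusted p no higher than 0.05 (limma, Benjamini-Hochberg). Differences are on the log2(scaled TPM + 0.5) scale, on which changes of weakly expressed genes come out smaller than they are. With no fold threshold, the adjusted p was passed by 3408 higher genes (21.4%) and 2675 lower ones (16.8%), and the larger side there depended on the scaling. These counts also moved when a library was left out, to 2248 higher without SETD2 C replicate 1, to 1867 higher and 1569 lower without replicate 2, and to 1744 lower without SETD2 FL replicate 3. The median log2 fold change over all genes was 0.04. All 603 called genes had libraries that did not overlap. Over all genes tested, 40.3% had both SETD2 C libraries above both SETD2 FL libraries and 32.0% had both below. The called protein-coding genes that were higher had a median log2 fold change of 1.31 relative to SETD2 FL. Relative to KO the same 299 genes had a median of 1.33 with SETD2 C and -0.02 with SETD2 FL. The comparisons share libraries, and the genes were chosen on the first of them.

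**Figure D1:**
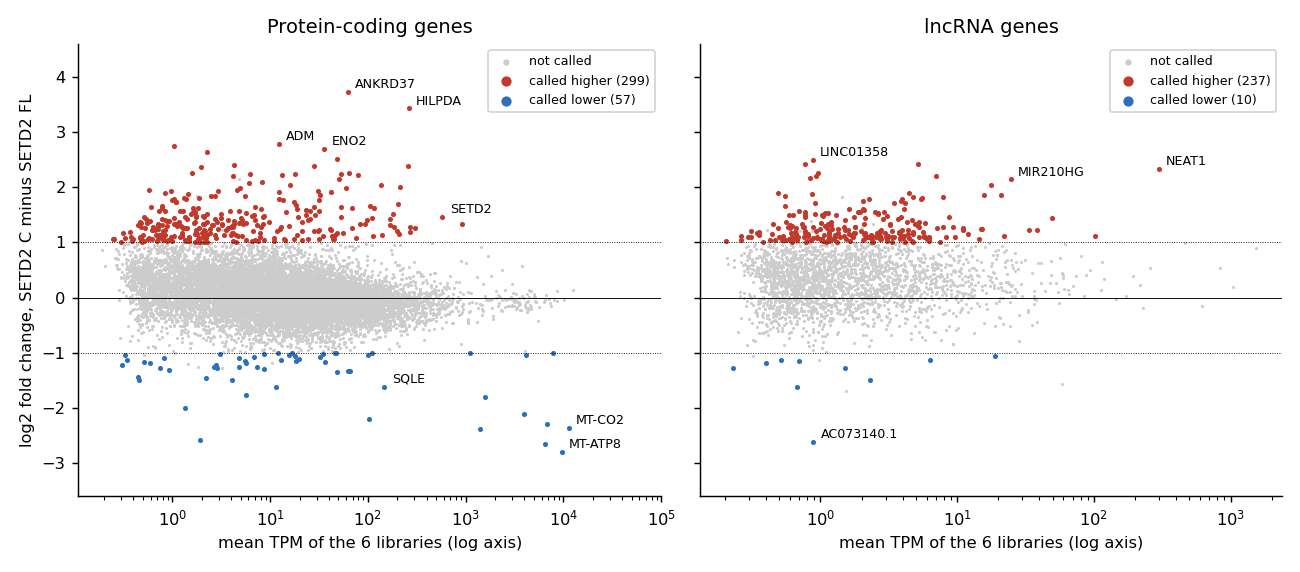
Log2 fold change of SETD2 C minus SETD2 FL for each gene tested against its mean TPM over 6 libraries (log axis), for 13419 protein-coding genes (left) and 2510 lncRNA genes (right). Dotted lines mark a fold change of 2 in each direction. Red points, 299 protein-coding and 237 lncRNA genes, were called higher, and blue points, 57 and 10, were called lower.

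Genes that HIF is known to induce held the largest increases. Of 42 HIF target effectors tested, 23 were higher (54.8%, against 3.36% of all genes) and none was lower. At the adjusted p alone 35 were higher and none lower. Their median log2 fold change was 1.12, against 0.04 over all genes. The summed TPM of the list was 4144 and 4387 in SETD2 C cells, 1373 and 1372 in SETD2 FL cells, and 1352 and 1446 in KO. EPO and ANGPTL4 were below the TPM filter.

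ANKRD37, an ankyrin repeat protein, lies on chromosome 4 from 185396021 to 185400628. It had 154 and 171 TPM in SETD2 C cells, 10.5 and 11 in SETD2 FL cells, and 12.4 and 13.8 in KO. It rose by 3.73 ± 0.08 (SE) on the log2 scale, the largest change of all genes tested (limma, adjusted p = 8.72e-07). HILPDA, which inhibits lipolysis at lipid droplets, had 647 and 685 TPM in SETD2 C cells against 56.6 and 55.3 in SETD2 FL cells. ADM, the precursor of the vasodilator adrenomedullin, had 31.2 and 29.3 against 3.42 and 3.73. Replicates of both genes differed by far less than the groups did. LOX, the lysyl oxidase that cross-links collagen, had 57.9 and 68.0 against 11.5 and 9.74 (log2 fold change 2.38 ± 0.12, SE).

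P4HA1 and PLOD2, a prolyl and a lysyl hydroxylase that modify collagen, were also called higher. P4HA1 had 164 and 177 TPM in SETD2 C cells against 60.2 and 56.5 in SETD2 FL cells, and PLOD2 had 205 and 232 against 67.9 and 61.1. P4HA2 passed only the adjusted p, at a log2 fold change of 0.54. The transcriptional repressors BHLHE40 and BHLHE41 rose by 2.22 and 2.09 on the log2 scale. BNIP3 and BNIP3L, receptors for mitophagy, had 194 and 201 TPM against 55.9 and 57.6, and 65.1 and 73.1 against 25.1 and 27.4. DDIT4, an inhibitor of mTORC1, had 378 and 398 against 105 and 114. NDRG1, a stress-induced gene linked to differentiation, had 423 and 442 against 87.6 and 109. The lncRNA MIR210HG, host of miR-210, had 52.8 and 49.8 against 10.2 in both SETD2 FL libraries. In each of these genes both SETD2 C libraries lay above both SETD2 FL libraries, while SETD2 FL minus KO ranged from -0.31 for MIR210HG to 0.05 for P4HA2 on the log2 scale and passed the test in none of them.

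Other well-known HIF targets moved less. VEGFA, the angiogenic growth factor, had 58.2 and 66.1 TPM in SETD2 C cells, 30.8 and 31.0 in SETD2 FL cells, and 35.8 and 33.4 in KO, a log2 fold change of 0.87 (adjusted p = 0.00021 from limma). CA9, a carbonic anhydrase at the cell surface, was low throughout, at 0.87 and 0.61 against 0.18 and 0.03. CA12 had 5.57 and 5.54 against 5.23 and 4.72, and PLOD1 had 78.8 and 79.0 against 73.7 and 66.8. Neither CA12 nor PLOD1 passed the test.

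Among the 9 HIF subunits and regulators tested, the median log2 fold change was 0.28 and 1 gene, EGLN3, was called (11.1%, against 3.36% of all genes). EGLN3 had 40.3 and 43.5 TPM in SETD2 C cells against 12.7 and 15.6 in SETD2 FL cells. EGLN1 had 51.2 and 50.3 against 21.8 and 24.5, a log2 fold change of 0.99 just below the fold threshold. Both are prolyl hydroxylases and are themselves known HIF targets. EGLN2, the prolyl hydroxylase that is not, had 27.2 and 26.9 against 31.3 and 31.6 and fell by 0.34 on the log2 scale (adjusted p = 0.00991 from limma). It missed the threshold without scaling, and narrowly without SETD2 C replicate 2 or SETD2 FL replicate 3 (adjusted p = 0.053 and 0.0512 from limma). HIF1A itself had 25.0 and 27.9 against 22.7 and 24.6 (log2 fold change 0.03 ± 0.07, SE). EPAS1, which encodes the HIF-2 alpha subunit, had 9.90 and 11.8 against 7.64 and 8.17. VHL had 63.2 and 59.6 against 44 and 44.4. HIF1A-AS2, a lncRNA on the opposite strand of HIF1A, had 2.40 and 2.44 TPM in SETD2 C cells and 0.15 and 0.08 in SETD2 FL cells, and was listed at 0 in KO. HIF protein was not measured.

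To show the sequences around the starts of strongly changed HIF targets, 4 promoters follow, from 250 bases before to 50 bases after the RefSeq start (GRCh38.p14), read 5′ to 3′ on the strand of the gene. ANKRD37 is at chr4:185396591-185396890 on the plus strand, ADM at chr11:10304823-10305122 on the plus strand, ENO2 at chr12:6914330-6914629 on the plus strand and LOX at chr5:122078210-122078509 on the minus strand. Capitals mark the core of the HIF response element, ACGTG or GCGTG, on either strand.

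ANKRD37 promoter: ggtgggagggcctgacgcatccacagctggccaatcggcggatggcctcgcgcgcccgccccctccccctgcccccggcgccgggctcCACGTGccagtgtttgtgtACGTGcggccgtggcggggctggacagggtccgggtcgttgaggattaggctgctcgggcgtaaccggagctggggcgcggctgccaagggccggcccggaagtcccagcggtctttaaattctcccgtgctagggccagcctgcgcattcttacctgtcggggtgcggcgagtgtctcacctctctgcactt
ADM promoter: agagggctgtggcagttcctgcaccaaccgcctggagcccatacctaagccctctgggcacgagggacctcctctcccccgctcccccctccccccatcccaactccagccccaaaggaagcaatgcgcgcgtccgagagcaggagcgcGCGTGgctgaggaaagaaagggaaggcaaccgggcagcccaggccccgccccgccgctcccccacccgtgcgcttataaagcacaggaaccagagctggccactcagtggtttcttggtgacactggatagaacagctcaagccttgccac
ENO2 promoter: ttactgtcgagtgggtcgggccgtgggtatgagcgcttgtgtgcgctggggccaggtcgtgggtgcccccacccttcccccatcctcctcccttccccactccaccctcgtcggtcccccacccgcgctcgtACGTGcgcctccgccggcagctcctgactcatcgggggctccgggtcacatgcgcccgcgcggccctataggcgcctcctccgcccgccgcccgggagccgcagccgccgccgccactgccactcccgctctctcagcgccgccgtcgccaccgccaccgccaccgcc
LOX promoter: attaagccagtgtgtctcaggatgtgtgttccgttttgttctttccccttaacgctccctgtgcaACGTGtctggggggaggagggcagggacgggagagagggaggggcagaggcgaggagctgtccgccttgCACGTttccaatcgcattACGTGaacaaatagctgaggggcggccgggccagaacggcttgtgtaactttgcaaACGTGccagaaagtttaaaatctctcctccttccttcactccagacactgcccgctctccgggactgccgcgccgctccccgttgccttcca

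ANKRD37 holds a palindrome read as ACGTG on both strands and a further ACGTG, ADM a single GCGTG, ENO2 a single ACGTG and LOX 4 copies of ACGTG. The palindrome is also an E-box. RefSeq promoters matched 10503 of the 13419 protein-coding genes tested. ACGTG was present in 26.4% of these promoters, and in 21 of 34 for the HIF target effectors (61.8%). For the members that were called higher the share was 12 of 17 (70.6%). Either core was present in 63.4% of the promoters of all genes tested and in 29 of 34 of the HIF target effectors (85.3%). Of all protein-coding genes called higher, 60 of 207 held ACGTG (29.0%) and 119 held either core (57.5%), against the 26.4% and 63.4% of all genes tested. Among 18 promoters of cholesterol genes ACGTG was present in 4 (22.2%). Either core was present in 15 of the 18 (83.3%), near the share of the HIF target effectors. A match of these letters is not evidence of binding.

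Genes of glucose uptake and glycolysis rose at most steps of the pathway. Of 25 genes tested, 9 were called higher (36%, against 3.36% of all genes) and none lower. At the adjusted p alone 22 were higher (88.0%, against 21.4% of all genes). The median log2 fold change was 0.66. The summed TPM was 18760 and 18800 in SETD2 C cells against 10320 and 11430 in SETD2 FL cells, and 11650 and 11690 in KO.

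The glucose transporter SLC2A3 had 105 and 116 TPM in SETD2 C cells against 17.7 and 16.8 in SETD2 FL cells, and SLC2A1 had 95.1 and 93.7 against 39.7 and 36.2. SLC2A14, a near copy of SLC2A3, was also called, and reads of the pair may be split between them. HK2, which phosphorylates glucose, had 66.8 and 68.0 against 27.1 and 29.3, while HK1 had 81.0 and 80.2 against 48.0 and 53.9 and stayed below the fold threshold. PFKFB3 and PFKFB4 make the activator of phosphofructokinase. PFKFB4 had 25.6 and 24.3 against 5.64 and 5.69, and PFKFB3 had 46.3 and 47.1 against 16.4 and 20.1. PGK1, which makes ATP from bisphosphoglycerate, rose from 539 and 582 TPM in SETD2 FL cells to 1519 and 1561 in SETD2 C cells.

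Within the enolase step the isoforms differed. ENO2 had 82.2 and 87.8 TPM in SETD2 C cells against 11.4 and 11.7 in SETD2 FL cells, a log2 fold change of 2.70 ± 0.06 (SE) with an adjusted p of 1.11e-06 from limma. ENO1, the main isoform in these cells, had 3046 and 2985 against 1853 and 2042, a log2 fold change of 0.50. GAPDH had 4958 and 4980 against 2899 and 3224, and LDHA, which turns pyruvate into lactate, had 2129 and 2240 against 999 and 1117. PDK1, which restrains entry of pyruvate into mitochondria, had 64.7 and 62.2 against 15.2 and 16.2. PFKM, PGM1 and GYS1 did not pass the test, at log2 fold changes of 0.14, -0.01 and -0.09. PFKM passed it in 5 of 16 alternatives.

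**Figure D2:**
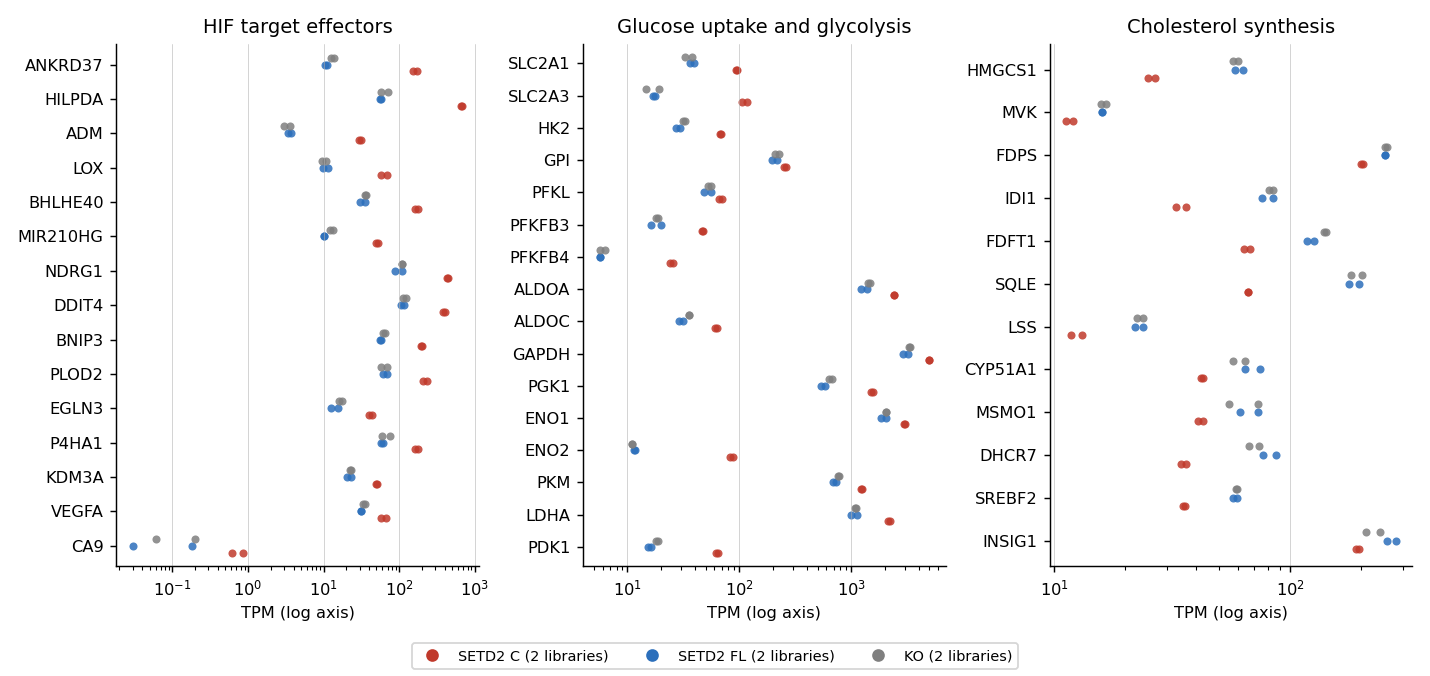
TPM (log axis) of named HIF target effectors, glycolysis genes and cholesterol genes, 1 point per library, for SETD2 C (red), SETD2 FL (blue) and KO (grey), 2 libraries each. In the left and middle panels both SETD2 C libraries sit above both SETD2 FL libraries in every gene shown, and in the right panel both sit below. The panels show selected members and leave out CA12, PLOD1, PFKM, PGM1, GYS1, SC5D and STARD4, which did not pass the test. After scaling, the pattern held for 39 of 42, 23 of 25 and 21 of 24 genes tested in the full lists. Of all genes tested, 40.3% had both SETD2 C libraries above and 32.0% both below.

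The 13 mRNAs of the mitochondrial chromosome fell. All 13 passed the adjusted p and 11 were called lower, against 0.421% of all genes. Their median log2 fold change was -2.12. They took 2.44% and 2.78% of all TPM in SETD2 C cells, 10.4% and 7.43% in SETD2 FL cells and 6.73% and 5.88% in KO. By these shares the SETD2 FL libraries lay above KO and the SETD2 C libraries below it, so the fall relative to SETD2 FL was larger than that relative to KO (median -1.37). Mitochondrial rRNAs and tRNAs together took 0.495% and 0.589% of TPM in SETD2 C cells, 0.562% and 0.365% in SETD2 FL cells. In KO they took 0.315% and 0.346%. The rRNA and tRNA share thus overlapped between the constructs and lay above KO with both. These RNAs were outside the gene types of the main test. SETD2 FL minus KO passed the test in none of the mitochondrial mRNAs named here. SETD2 C minus KO did not pass it for MT-ND1 and MT-ND5 (adjusted p = 0.06 and 0.1025 from limma). For MT-ND5, SETD2 C replicate 2 (790 TPM) lay above KO replicate 4 (759 TPM). SETD2 FL replicate 3 lay above replicate 4 for every one of the 13. Without that library, or without SETD2 C replicate 1, 8 were called lower, and MT-ND1, MT-CO1 and MT-ND4 fell below the fold threshold.

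The mRNAs fell to different extents along the chromosome. MT-ND1, MT-CO1, MT-ND4L, MT-ND4 and MT-ND5 were at 52.6% to 60.9% of their SETD2 FL level, and the other 8 at 15.6% to 31.0%. MT-CO1, a subunit of cytochrome c oxidase, had 5283 and 6150 TPM in SETD2 C cells, 12351 and 8892 in SETD2 FL cells, and 7422 and 6833 in KO. MT-CO2, its neighbour on the chromosome and in the enzyme, had 3462 and 3808, 20389 and 14214, and 14040 and 12032. MT-ATP8 and MT-ATP6, which overlap and share an mRNA, had the lowest levels relative to SETD2 FL, at 15.6% and 17.2%. MT-ND6, the only one of the 13 on the opposite strand, was at 23.2%. The grouping was made after the values were seen and was given no test.

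**Figure D3:**
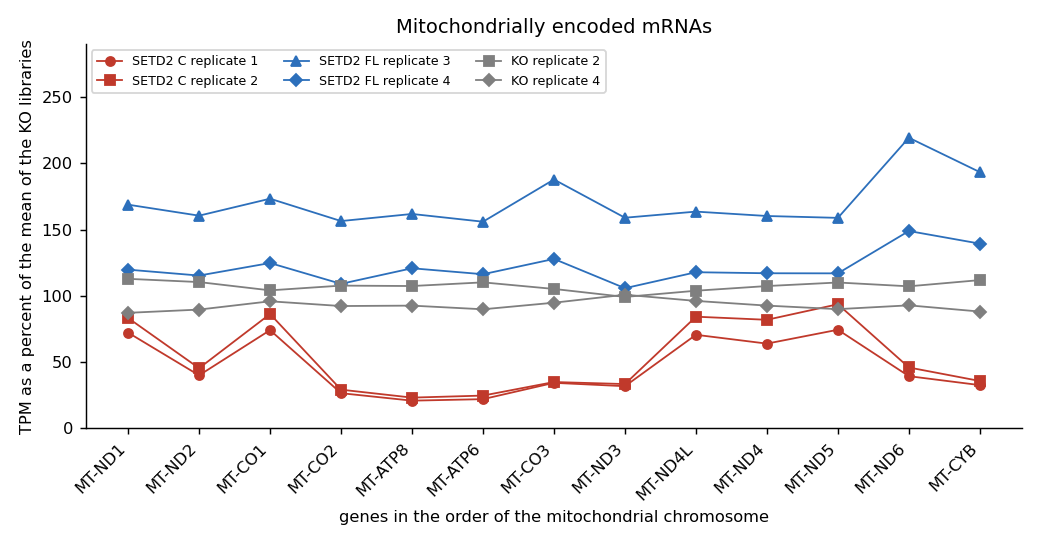
TPM of the 13 mitochondrially encoded mRNAs as a percent of the mean of the KO libraries, in the order of the mitochondrial chromosome, 1 line per library. In the SETD2 C libraries MT-CO2, MT-ATP8 and MT-ATP6 lie at the bottom, with means of 27.9%, 22.1% and 23.4% of KO, while MT-ND1, MT-CO1 and MT-ND5 lie at 77.8%, 80.2% and 84.0%.

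Nuclear genes of the mitochondrion moved far less. Of 78 subunits of the respiratory chain none was called, and by the adjusted p alone 2 were higher and 32 lower, and the median was -0.13. Mitochondrial ribosomal proteins had 2 of 78 higher and 43 lower, with a median of -0.24. The respective shares of all genes were 21.4% and 16.8%. Factors of mitochondrial transcription and RNA stability had none higher and 10 of 23 lower. Among the last, the helicase TWNK had 11.7 and 9.81 TPM against 14.8 and 16.7, and POLRMT, the mitochondrial RNA polymerase, had 66.4 and 61.4 against 76.3 and 74.3. Cytosolic ribosomal proteins had a median of -0.07, which turned positive without scaling and under quantile normalization.

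Cholesterol synthesis was lower across most of its steps. Of 24 genes tested 7 were called lower, against 0.421% of all genes, and none higher. At the adjusted p alone 21 were lower (87.5%, against 16.8% of all genes). The median log2 fold change was -0.82. SQLE, which oxidizes squalene, had 65.9 and 66.1 TPM in SETD2 C cells against 195 and 176 in SETD2 FL cells and 181 and 202 in KO. It fell by 1.61 ± 0.08 (SE) on the log2 scale (limma, adjusted p = 1.78e-05). HMGCS1, which makes HMG-CoA, had 25.0 and 26.6 against 58.5 and 62.7. IDI1 and FDFT1 in the isoprenoid and squalene steps and DHCR7 at the end of the pathway were called lower as well. FDFT1 lay close to the fold threshold and lost its call in 7 of 16 alternatives, among them no scaling (-0.88), quantile normalization (-0.97) and the fits without SETD2 C replicate 2 or SETD2 FL replicate 4 (-0.965 and -0.996). SREBF2 had 35.9 and 35.2 against 57.2 and 59.7 and fell by 0.84 on the log2 scale. INSIG1, which holds SREBF2 back, had 189 and 196 against 280 and 255. Its relative INSIG2 went the other way, at about 50 and 52.9 against 20.7 and 19.6, and is also a known HIF target. SC5D and STARD4 had positive values of 0.30 and 0.25 and did not pass the test. In the alternatives SC5D passed it upward in 8 of 16 and STARD4 in 2 of 16.

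Genes of the response to misfolded proteins and amino acid shortage had a median log2 fold change of -0.38. Of 23 genes 3 were called higher (13%, against 3.36% of all genes) and 2 lower. By the adjusted p alone 4 were higher (17.4%, against 21.4% of all genes) and 14 lower (60.9%, against 16.8%). ATF3 had 298 and 357 TPM in SETD2 C cells against 103 and 106 in SETD2 FL cells, DDIT3 had 56.1 and 52.9 against 19.7 and 22.5, and PPP1R15A, which reverses the block on translation, had 70.0 and 74.8 against 30.4 and 32.8. ATF4, the factor that drives the arm, had 531 and 540 against 640 and 694. Its targets in amino acid synthesis, ASNS, PSAT1 and PHGDH, fell by 0.59, 0.71 and 0.59 on the log2 scale. CHAC1, which degrades glutathione, had 1.95 in both SETD2 C libraries against 5.53 and 6.24, and SLC7A11, the cystine transporter, had 2.32 and 3.14 against 7.27 and 5.92. SLC6A9, a glycine transporter, was lower by 1.77.

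Heat shock genes had 2 of 22 called higher, HSPA6 and CRYAB (9.09%, against 3.36% of all genes). HSPA6 had 6.14 and 12 TPM in SETD2 C cells, 2.31 and 2.36 in SETD2 FL cells, and 0.17 and 0.20 in KO, so that it was above KO with either construct. CRYAB had 1.77 and 2.95 against 0.26 and 0.28, and it passed the filter through the SETD2 C libraries alone. At the adjusted p alone 5 were higher (22.7%, against 21.4% of all genes) and 7 lower (31.8%, against 16.8%), and the lower ones included HSP90AB1 (log2 fold change -0.25) and HSPH1 (-0.32).

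Immediate early genes, which respond quickly to signals, had 7 of 24 called higher (29.2%, against 3.36% of all genes) and none lower, with a median of 0.64. By the adjusted p alone 14 were higher (58.3%, against 21.4% of all genes) and 2 lower (8.33%, against 16.8%). FOS had 14.1 and 14.6 TPM in SETD2 C cells against 2.38 and 2.43 in SETD2 FL cells, JUNB had 28.4 and 27.2 against 8.26 and 8.51, and JUN had 402 and 459 against 152 and 169. IER3 had 60.3 and 64.0 against 14.1 and 14.8. EGR1 had 1.79 and 1.62 against 1.07 and 1.37 and did not pass the test, and MYC was lower, at 196 and 186 against 244 and 281. Of 12 MAP kinase phosphatases and Sprouty genes, which switch such signals off, DUSP1 and DUSP5 were called higher (16.7%, against 3.36% of all genes). By the adjusted p alone 6 were higher (50%, against 21.4%) and 1 lower (8.33%, against 16.8%). DUSP2 and DUSP9 belong to the same family. DUSP9 had 36.9 and 36.8 against 24.4 and 27.5, and DUSP2 was below the TPM filter.

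Of 17 CDK inhibitors, BTG and GADD45 genes 1 was called (5.88%, against 3.36% of all genes), GADD45B, with a TPM of 34.3 and 39.5 against 9.87 and 10.4. By the adjusted p alone 11 were higher (64.7%, against 21.4% of all genes) and 1 lower (5.88%, against 16.8%). The median log2 fold change of the list was 0.42. CDKN1A had 51.9 and 48.2 against 31.9 and 34.4. Of 25 p53 targets none was called higher and 1 lower, TIGAR. By the adjusted p 3 were higher (12%, against 21.4% of all genes) and 9 lower (36%, against 16.8%), with TIGAR at 4.08 and 5.00 against 9.04 and 12.2 and PPM1D at 13.7 and 14.5 against 18.7 and 19.8. GDF15 had 9.16 and 9.70 in SETD2 C cells, 12.3 and 12.1 in SETD2 FL cells and 2.77 and 2.88 in KO. Among 28 mitotic genes none was called, while 13 passed the adjusted p upward (46.4%, against 21.4% of all genes) and 1 downward (3.57%, against 16.8%). BUB1 had 94.1 and 99.2 against 55.0 and 57.5, and CDK1 had 182 and 193 against 109 and 111.

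Replication-dependent histone mRNAs normally end in a stem-loop without a poly(A) tail, and the RNA was enriched for poly(A). Of 89 such genes in the table, 35 were above the filter. Of these, 11 were called higher (31.4%, against 3.36% of all genes) and none lower, with a median of 0.83 among those tested. A gene could pass the filter through the SETD2 C libraries alone. Over all 89 the summed TPM was 670 and 715 in SETD2 C cells, 251 and 270 in SETD2 FL cells, and 273 and 335 in KO. HIST2H2BE had 23.5 and 29.2 TPM in SETD2 C cells against 4.37 and 5.09 in SETD2 FL cells, and HIST1H1C, a linker histone, had 55.0 and 57.9 against 15.1 and 19.1. HIST3H2BB, at 8.63 and 11.3 against 1.29 and 1.34, rose by 2.40 on the log2 scale. HIST2H3C had 5.47 and 12.1 and HIST2H3A 5.47 and 0 in SETD2 C cells. The pair are near-identical copies, as are HIST2H4A and HIST2H4B, and reads could be split between copies differently in each library.

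Of 5 metallothionein and zinc response genes tested, 1 was called higher (20%, against 3.36% of all genes) and 3 passed the adjusted p upward (60%, against 21.4%). Metallothioneins bind zinc and copper. MT1X had 132 and 150 TPM in SETD2 C cells against 49.0 and 52.8 in SETD2 FL cells. MT2A had 155 and 150 against 72.6 and 69.1, just below the fold threshold.

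Of 20 adhesion, invasion and EMT genes tested 3 were called higher (15%, against 3.36% of all genes) and none lower, with a median of 0.29. By the adjusted p alone 7 were higher (35%, against 21.4% of all genes) and 2 lower (10%, against 16.8%). LAMB3, a laminin chain, had 2.08 and 2.05 TPM against 0.44 and 0.41, and FN1, fibronectin, had 57.7 and 56.5 against 27.7 and 20.3. SNAI1, a repressor of epithelial genes, had 4.76 and 3.59 against 1.71 and 1.36, and its log2 fold change fell below 1 without SETD2 C replicate 1 (0.90) or SETD2 FL replicate 4 (0.94). That of FN1 fell below 1 without SETD2 FL replicate 4 (0.88). Of 14 matrix metalloproteinases and inhibitors tested, MMP10 and MMP12 were called (14.3%, against 3.36% of all genes), each near or below 1 TPM. Neither passed the fold threshold at a pseudocount of 1 or under quantile normalization. LAMB3, MMP10 and MMP12 passed the filter through the SETD2 C libraries alone, so a fall could not have been seen. With 1 TPM required in every library, 1 adhesion gene and no metalloproteinase or inhibitor was called. TIMP1, an inhibitor, had 432 and 426 against 260 and 239. Of the 9 HEK293T lineage genes 4 were called higher (44.4%, against 3.36% of all genes), namely KRT8, NEFL, NEFM and CD24. At the adjusted p alone 7 were higher (77.8%, against 21.4% of all genes), and the median log2 fold change was 0.48. KRT8 had 98.1 and 97.9 against 31.9 and 32.9, NEFL had 156 and 168 against 55.6 and 61.3, and CD24 had 5.00 and 4.51 against 1.71 in both.

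Among other protein-coding genes with large increases, SAT1, which acetylates polyamines, had 518 and 590 TPM in SETD2 C cells against 90.6 and 102 in SETD2 FL cells. CRABP2, which carries retinoic acid, had 143 and 137 against 25.1 and 27.5. TCEAL7 had 5.30 and 6.25 against 0.38 and 0.50. RSC1A1, a single-exon gene, had 2.78 and 3.38 and was listed at 0 in all SETD2 FL and KO libraries. Among decreases outside the mitochondrial chromosome, AL136295.1 had 0 and 0.57 against 4.76 and 2.86, and AC002996.1 had 0 and 1.04 against 2.65 and 3.14. Replicates of both differed widely, and AC002996.1 lost its call without SETD2 C replicate 1 or either SETD2 FL library (adjusted p of 0.0997 to 0.179 from limma).

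Writers, erasers and readers of H3K36 methylation were little changed apart from SETD2. Of 27 genes tested 1 was called, SETD2 itself, and the median of the list was 0.01. NSD2 and NSD3, which place lower methylation states, had log2 fold changes of 0.36 and 0.45. The demethylase KDM4A was lower by 0.36 and KDM4B, also a HIF target, higher by 0.47.

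**Figure D4:**
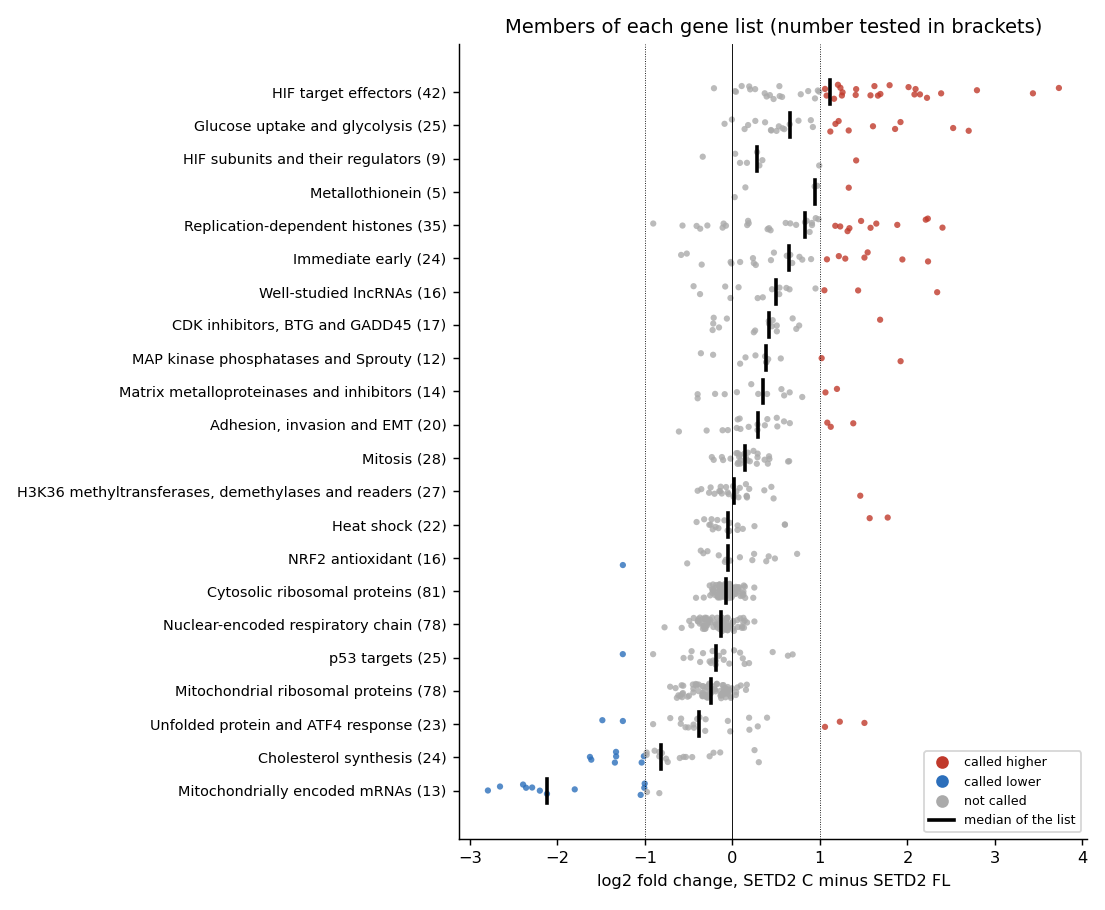
Log2 fold change of SETD2 C minus SETD2 FL for the members of 22 gene lists, with the number tested in brackets. Black bars are medians, which run from 1.12 for HIF target effectors to -2.12 for mitochondrially encoded mRNAs, and dotted lines mark a fold change of 2.

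Among lncRNAs, 237 of 2510 were called higher (9.44%) and 10 lower (0.398%), against 2.23% and 0.425% of protein-coding genes. The median log2 fold change was 0.36 for lncRNAs and 0.00 for protein-coding genes. In genes with a mean TPM under 1 the shares called higher were alike, at 6.90% of lncRNAs and 6.40% of protein-coding genes. At a mean TPM of 2 to 5 they were 14.2% and 3.41%, and at 10 or more 7.41% and 1.14%. In the last class 115 of 216 lncRNAs were higher at the adjusted p alone (53.2%) against 17.5% of protein-coding genes, and 14 were lower. More genes passed a TPM of 1 in the SETD2 C libraries, as given above, and the part of this in the lncRNA counts was not tested. With 1 TPM required in every library, 103 of 1076 lncRNAs were called higher (9.57%), against 1.35% of protein-coding genes. The medians were then 0.34 and -0.02. Under quantile normalization 117 lncRNAs were called higher (4.66%) and 25 lower, against 1.64% of protein-coding genes higher.

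**Figure D5:**
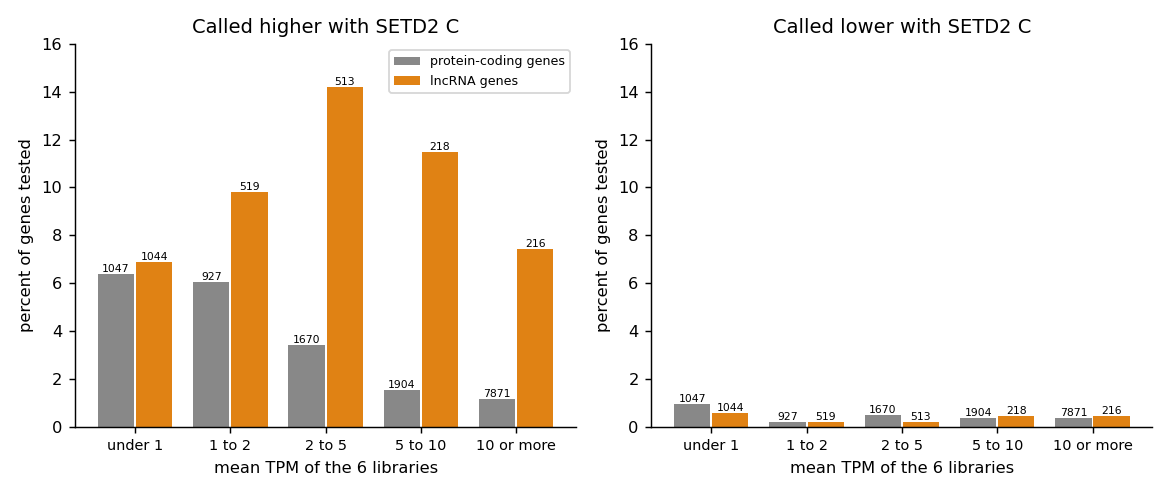
Percent of genes tested that were called higher (left) or lower (right) with SETD2 C, by mean TPM over 6 libraries, for protein-coding genes (grey) and lncRNAs (orange). The numbers on the bars are genes tested. From a mean TPM of 2 to 5 upward the share of lncRNAs called higher lies well above that of protein-coding genes, at 14.2%, 11.5% and 7.41%.

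By position, lncRNAs that overlap no protein-coding gene and start within 1000 bases of an opposite-strand protein-coding start were called higher most often, 46 of 282 (16.3%). For those that overlap a protein-coding gene in antisense the share was 79 of 1236 (6.39%), and for those that overlap one in sense only 43 of 323 (13.3%). Of the lncRNAs that lay over or beside a protein-coding gene, 173 of 1916 were called higher (9.03%). Of the 1916, 34 had a partner that was called higher, and 13 of those 34 were called higher themselves. SLC2A1-AS1, divergent from SLC2A1, had 8.62 and 10.1 TPM in SETD2 C cells against 1.87 and 2.02 in SETD2 FL cells. ID2-AS1 had 2.41 and 2.27 against 0.36 and 0.49, and HOTTIP, which overlaps HOXA13 in antisense, had 1.32 and 1.68 against 0.42 and 0.28. HOTTIP lost its call after quantile normalization (0.86) or with a pseudocount of 1 (0.82). Whether the counting used the strand is not given in the sources used here, so reads of a lncRNA and an overlapping partner may not be told apart.

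NEAT1, the RNA scaffold of nuclear paraspeckles, had 578 and 758 TPM in SETD2 C cells, 121 and 117 in SETD2 FL cells, and 110 and 112 in KO. MALAT1, the RNA of nuclear speckles, had 68.3 and 103 against 28.4 and 27.8. Of the 10 paraspeckle components tested, NEAT1 included, 1 was called (10%, against 3.36% of all genes). By the adjusted p 4 were higher (40% against 21.4% of all genes) and 1 lower. PSPC1 and NUDT21 were higher, by 0.22 and 0.16 on the log2 scale, and CPSF6 was lower by 0.46. SFPQ stood at 211 and 221 against 209 and 216 and NONO at 647 and 615 against 514 and 538. Neither passed the test, although NONO passed it in 5 of 16 alternatives. Of 25 host genes of small nucleolar RNAs 11 passed the adjusted p upward (44%, against 21.4% of all genes) and 2 downward (8%, against 16.8%), among them SNHG1 at 640 and 717 against 314 and 306. LINC01011 had 11 and 12.3 against 1.55 and 1.65, and AC091182.1 had 15.0 and 16.5 against 2.71 and 2.76. LINC01358 had 2.06 and 3.20 in SETD2 C cells and 0 and 0.03 in SETD2 FL cells, AC100797.1 had 2.53 and 2.43 against 0.19 and 0, and AC098479.1, at 2.12 and 2.52, was listed at 0 in the SETD2 FL and KO libraries. AC073140.1 went the other way, at 0 in both SETD2 C libraries against 1.66 and 3.67. AC002116.1, AC019069.1 and AC145207.3 were lower by 1.62, 1.5 and 1.27 on the log2 scale. AC145207.3 lost its call without SETD2 C replicate 2 or SETD2 FL replicate 3, and AC002116.1 without SETD2 C replicate 1 or SETD2 FL replicate 4.

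The structure of the called genes is given as a description, with no test. The loci of the 299 protein-coding genes that were higher spanned a median of 16.9 kb, against 34.0 kb over all protein-coding genes tested, their reference transcripts had a median of 5 exons against 9, and 24 of them had a single exon (8.03% against 2.26%). The transcripts had a median length of 2540 nt against 3300 nt and a GC content of 50.6% against 48.7%. The 57 protein-coding genes called lower had the same median span, 16.9 kb. Their medians were 6 exons and 2040 nt, and 13 had a single exon (22.8%). The higher genes were also weakly expressed, with a median of 1.59 TPM in SETD2 FL cells against 13.5 over all protein-coding genes tested. With each library adjusted for transcript length, 563 genes were called higher, and with adjustment for GC content 611. Called lncRNAs had a median length of 917 nt against 964 nt for all lncRNAs tested, and 40.1% had a single exon against 30.2%.

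The kinases CLK1 and CLK4, whose transcripts keep introns in the nucleus, had 98.2 and 109 TPM against 47.9 and 50.1, and 29.4 and 31.7 against 14.6 and 16.8, with log2 fold changes of 0.95 and 0.81. Over 40 SR proteins, hnRNPs and CLK kinases tested none was called, by the adjusted p 10 were higher (25%, near the 21.4% of all genes) and 4 lower, and the median of -0.03 turned positive without scaling and under quantile normalization. SRSF3 and SRSF7 were lower, by 0.55 and 0.52. Of 435 genes with a ZNF symbol 21 were called higher (4.83%, against 3.36% of all genes) and 1 lower, with ZNF736 at 9.98 and 12 against 3.25 and 2.99. Interferon response and DNA sensing genes, of which 10 of 22 passed the filter, had none called and 1, IRF9, higher at the adjusted p alone. Of 35 proteasome subunits 1 was called, the inducible subunit PSMB9 at 2.64 and 2.43 against 0.88 and 0.81, and 15 were lower at the adjusted p alone (42.9%, against 16.8% of all genes). PSMB9 lost its call after quantile normalization (0.79) or with a pseudocount of 1 (0.86).

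Some values for genes that the study names were near the threshold or outside the test. ARID1A, AP3D1 and CLIC4 were tested here, with log2 fold changes of -0.34, -0.18 and 0.06. DUSP1 had 81.7 and 84.4 TPM in SETD2 C cells against 18.4 and 21.1, and DUSP5 had 6.56 and 6.83 against 2.52 and 3.05. The change of DUSP5 fell below the fold threshold without SETD2 C replicate 2 or SETD2 FL replicate 3, at log2 fold changes of 0.99 and 0.93. MMP10 had 0.69 and 0.61 against 0.04 and 0.02, MMP12 1.07 and 0.86 against 0.10 and 0.12, and MMP13 0.84 and 0.57 against 0.17 and 0.15. At such levels the pseudocount sets most of the size of a change. MMP10, MMP12 and MMP13 passed the filter through the SETD2 C libraries alone. For some genes with higher RNA-seq expression the paper also reports qPCR, and its primers include those for MMP12, MMP13 and NEAT1. The labels do not say that the libraries came from separate cultures, so the p-values measure only the spread between these samples, which may be technical.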

How the data were processed

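The RNA-seq analysed here came from HEK293T cells, in 6 libraries of one table, a pair for every group (SETD2 C, SETD2 FL, KO). Per the labels and methods, the authors aligned reads to hg38 with STAR 2.6.1c and deposited TPM per gene, estimated with RSEM 1.3.0. TPM is relative to transcript length and to the library total, so a change in abundant genes shifts all others and no counting error can be derived. The study tested counts with edgeR, which were not used here, nor was a separately made table with WT libraries.

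Gene types, positions and lengths came from GENCODE 44 on GRCh38 (58472 of 58884 genes matched by identifier, 18 by symbol; 113 unmatched genes passed the filter and were not tested). TPM was scaled by the median ratio over those protein-coding and lncRNA genes that reached 1 TPM in all libraries (factors of 0.956 to 1.07). A gene was tested if 2 or more libraries reached 0.5 TPM. A gene could pass this filter through the libraries of a single group, and a change in the other direction could then not be seen. The log2 of scaled TPM plus 0.5 was fitted over all 6 libraries by the trended empirical Bayes method of limma 3.58.1 (R 4.3.3), two-sided. Calls needed a 2-fold change and an adjusted p (Benjamini-Hochberg) no higher than 0.05. An exact permutation test of 2 against 2 libraries cannot go below p = 0.333 and was not used. Promoters were those of RefSeq.

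On simulated data for this comparison (15929 genes), all 66 genes changed by 1.5 and all 66 changed by 3 on the log2 scale were recovered. Of 68 changed by 0.5, 50 passed the adjusted p. There were 4 false calls, and 16 unchanged genes passed the adjusted p. The few changed genes were drawn above a minimum mean level, with independent normal noise. Recovery of weakly expressed genes, and of changes in as many genes as in these data, was not simulated. No gene was called without changes.

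The members and the 34 gene lists were chosen with earlier results of these data known. Named genes were SETD2, the 12 and 10 protein-coding genes and the 6 and 4 lncRNAs with the largest increases and decreases among calls without overlap, leading members of each list by change and by level, and genes the study names. Alternatives were other pseudocounts, filters, scalings and gene types, a fit of 4 libraries, eBayes without trend, adjustment for GC content or transcript length, and each library left out. Some genes are not reported here by name.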

Additional observations from a re-analysis of the deposited data

How the results depend on the processing

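No paired analysis was possible because the replicate numbers of SETD2 C (1 and 2) and SETD2 FL (3 and 4) share no number. The number of genes higher with SETD2 C moved to 852 and 317 at pseudocounts of 0.1 and 1, to 263 when each library had to reach 1 TPM, and to 337 under quantile normalization. The number lower moved to 104 at the smaller pseudocount and 125 after quantile normalization. Called genes were 88.9% higher as reported and 72.9% higher after quantile normalization. By the adjusted p alone, omitting the scaling gave 5189 higher and 1508 lower genes, while quantile normalization gave 2699 and 3066. Without scaling the median of all genes was 0.16, against 0.04 after scaling. With each library left out in turn, 432 to 608 genes were higher and 58 to 93 lower, and at the adjusted p alone 1867 to 2387 were higher and 1569 to 2069 lower. The lone library of a group was then assumed to vary like the others. Of the 603 called genes, 508 to 597 were still tested in these fits, all of them with the same sign, and 418 to 516 were called. The SETD2 difference ranged from 1.40 to 1.59 over all alternatives, and it gave no value where SETD2 itself was removed.

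HIF target effectors had 23 to 26 called higher and glycolysis genes 9 to 11 in all 16 alternatives, and cholesterol genes had 5 to 8 called lower. Of 152 named genes, 113 kept their direction and side of the threshold in each alternative that tested them, and 26 lost a call in some. The 8 genes that changed sign were not called as reported. HIST2H3A had 0.13 at a pseudocount of 1 and 0.044 with GC adjustment, and -1.81 to 1.67 with a library left out. PGM1 had 0.12 without scaling, 0.042 under quantile normalization, 0.028 when TPM was rescaled without mitochondrially encoded genes and SETD2, 0.045 with GC and 0.052 with length adjustment, and -0.065 to 0.052 with a library left out. GYS1 had 0.037 and SFPQ 0.023 without scaling, and CA12 had -0.097 and EGR1 -0.023 under quantile normalization. With a library left out, CA12 ranged from -0.065 to 0.12, PLOD1 from -0.059 to 0.14 and HIF1A from -0.043 to 0.11. The cause of these shifts was not tested. With 2 libraries a group and no counts, changes under the simulated 0.5 on the log2 scale can be missed, and fold changes near 0.5 TPM rest on the pseudocount.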

Other observations

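The genes in these paragraphs were chosen after their values were seen and stand for no group. SLC39A4, a zinc importer, had 22.2 and 21.0 TPM in SETD2 C cells, 43.3 and 47.0 in SETD2 FL cells and 41.9 and 40.9 in KO. SLC27A4, which takes up fatty acids, had 14.4 and 11.3 against 27.0 and 24.5, and SLC38A7, an amino acid transporter of lysosomes, had 3.89 and 2.96 against 8.06 and 7.35. Their log2 fold changes were -1.17, -1.11 and -1.19 (adjusted p of 1.99e-05, 0.000535 and 0.000844 from limma).

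Among the increases, CXCR4, a chemokine receptor, had 119 and 114 TPM in SETD2 C cells against 24.0 and 20.3 in SETD2 FL cells and 20.6 and 24.6 in KO. TXNIP, which binds thioredoxin and restrains glucose uptake, had 96.6 and 116 against 21.2 and 21.9, and CITED2, which competes with HIF for its coactivator, had 118 and 126 against 27.5 and 27.7. SMAD6, an inhibitor of BMP signalling, had 32.6 and 34.6 against 6.76 and 7.49. SETD2 FL minus KO ranged from -0.16 for TXNIP to -0.05 for CXCR4 on the log2 scale and passed the test in none of these 4 genes.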
